A study of Mus musculus with 6 samples.

Results

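The genes described here make and run the machinery that copies DNA. They are 46 genes chosen by symbol from the known replication machinery and sorted by role into licensing (11 genes), helicase activation (5), polymerases and other fork proteins (12), nucleotide supply (4), chromatin copying (5), fork surveillance (3) and the E2F and cyclin E switch (6). All 46 had a probe set of their own among the 22180 genes tested. The array data came from primary fibroblasts grown out of adult mouse lung. Every culture had the genotype UBCCreERT2:R26RSmoM2 on a mixed strain background. In such cells the ubiquitin C promoter drives CreERT2, a recombinase that tamoxifen compounds switch on, and the recombinase turns on SmoM2, a constitutively active Smoothened. 3 wells received vehicle and 3 received 1 µg/ml 4-hydroxytamoxifen (4OHT), and RNA was taken at 48 h. No group lacked the allele, so effects of the drug, of the recombinase and of SmoM2 cannot be told apart. The wells were split from isolated cells and nothing in the labels ties them to separate animals, so the p-values reflect only how much wells differ, and that difference can be technical.

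Before a cell copies its DNA, the origin recognition complex (Orc genes), Cdc6 and Cdt1 load the ring-shaped MCM2-7 helicase onto origins, a step called licensing, and geminin (Gmnn) holds Cdt1 in check afterwards. Cdc45 and the GINS proteins then turn the ring into a running helicase, polymerases alpha, delta and epsilon copy the strands with the sliding clamp PCNA, and ribonucleotide reductase, thymidylate synthase and thymidine kinase supply the building blocks. E2F transcription factors switch on most of these genes late in G1, the activators E2F1 and E2F2 early and the repressors E2F7 and E2F8 in a later feedback, with cyclin E and CDK2 driving the step into S phase.

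E2F factors are known to read short GC-rich sequences close to the start of their target genes, and the promoters of the members held such sequences often. The search used 4 spellings of an E2F-like element, TTTCCCGC, TTTGGCGC, TTTCGCGC and TTTGCCGC, on both strands of 300-base windows that run from 250 bases before a RefSeq gene start to 50 bases after it (GRCm38.p6). 40 of the 46 members matched a window by gene number; Mcm4, Gmnn, Gins1, Gins2, Pole and Tipin did not. 20 of the 46 windows of these 40 genes held the element (43.5%), against 744 of 32851 windows of all genes (2.26%). The stretches that follow were chosen as examples from members that fell in 4OHT wells (Mcm5, Mcm6, Cdc6, Dtl, Uhrf1 and E2f7) and from members that were not called (Orc1 and Cdk2). Each is an excerpt of a promoter, the element with up to 40 bases on either side and cut at the gene start where that lies nearer, written 5′ to 3′ on the strand of the gene, with the E2F-like letters in capitals.
Mcm5, chr8:75109316-75109407, strand plus: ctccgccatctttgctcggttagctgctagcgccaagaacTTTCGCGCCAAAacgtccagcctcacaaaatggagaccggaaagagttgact
Mcm6, chr1:128359706-128359855, strand minus: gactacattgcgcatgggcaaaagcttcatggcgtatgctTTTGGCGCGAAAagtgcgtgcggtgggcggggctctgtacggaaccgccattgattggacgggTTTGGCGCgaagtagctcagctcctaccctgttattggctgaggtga
Cdc6, chr11:98907973-98908060, strand plus: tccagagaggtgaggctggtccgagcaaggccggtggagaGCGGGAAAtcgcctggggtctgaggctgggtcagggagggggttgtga
Dtl, chr1:191575545-191575592, strand minus: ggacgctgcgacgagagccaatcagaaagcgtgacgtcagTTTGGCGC
Uhrf1, chr17:56304088-56304175, strand plus: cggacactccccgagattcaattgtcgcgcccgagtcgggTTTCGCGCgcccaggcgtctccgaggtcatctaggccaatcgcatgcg
E2f7, chr10:110745201-110745288, strand plus: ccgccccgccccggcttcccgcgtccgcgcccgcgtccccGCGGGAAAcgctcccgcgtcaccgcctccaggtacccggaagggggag
Orc1, chr4:108579387-108579453, strand plus: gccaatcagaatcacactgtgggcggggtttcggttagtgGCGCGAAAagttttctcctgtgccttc
Cdk2, chr10:128705144-128705231, strand minus: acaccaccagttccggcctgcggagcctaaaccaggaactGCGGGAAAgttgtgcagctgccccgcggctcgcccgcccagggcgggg

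In Mcm5 and Mcm6 the capitals run over 12 bases where 2 spellings on opposite strands overlap. The Dtl element begins 8 bases before the gene start, the Orc1 element 27 bases and the Mcm5 element 153 bases before it. A match is a description of the letters and no proof of a binding site, and the windows without a match may hold other spellings. The element was found in members that fell and in members that were not called. It stood in 11 of 21 matched genes that fell and in 9 of 19 that were not called. The median log2 fold change was -0.42 over the 20 genes with the element and -0.36 over the 20 genes without it. By role, it was found in 7 of 9 matched licensing genes, 5 of 11 polymerase and fork genes, 3 of 6 genes of the E2F switch and none of the 4 nucleotide supply genes.

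A different element marked a comparison list of mitosis genes. The letters TTTGAA, the core of the cell cycle homology region (CHR) that the MuvB complexes are known to read at late cell cycle genes, stood in 20 of 26 mitosis windows (76.9%), in 6 of 46 member windows (13.0%) and in 5878 of 32851 windows of all genes (17.9%). The E2F-like element in turn stood in 1 of the 26 mitosis windows (3.85%). The letters CCAAT, a common promoter box, stood in 63.0% of member windows, 76.9% of mitosis windows and 37.4% of all windows. E2F-like matches on opposite strands can overlap each other, overlaps between different elements were not examined, and these shares were not tested.

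**Figure D1:**
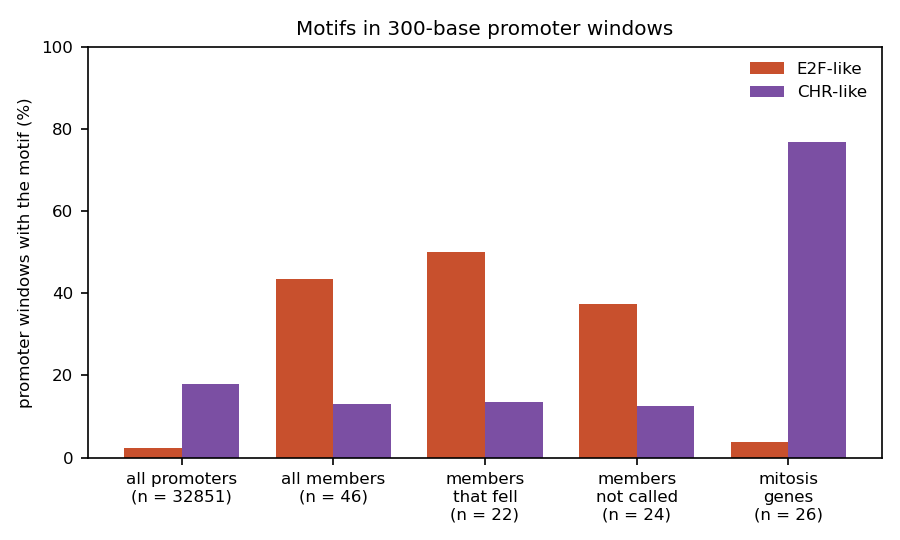
Bars give the percent of 300-base RefSeq promoter windows that hold an E2F-like or a CHR-like motif on either strand, for all promoters, the members, the members that fell, the members not called and the mitosis genes; n is the number of windows. E2F-like motifs stand in 43.5% of member windows and 2.26% of all windows, and CHR-like motifs in 76.9% of mitosis windows.

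As a check of the culture, the 12 fibroblast markers measured had mean log2 expression between 9.20 and 14.28, led by Fn1, and 2 of them (Col3a1 and S100a4) fell. Smooth muscle and pericyte markers were between 8.81 and 14.24, and mesothelial markers between 7.08 (Krt19) and 12.89 (Upk3b). Markers of other cell types ranged widely, from 4.23 (Scgb1a1) to 9.97 (Krt8) over the epithelial list, from 5.31 (Ptprc) to 10.15 (Lyz2) over the macrophage and leukocyte list and from 6.21 (Cldn5) to 10.14 (Esam) over the endothelial list, as means of the 6 arrays. Levels of different probe sets are not comparable, so these values do not settle whether such cells were present. Over all genes tested, 6.62% fell and 5.38% rose at an adjusted p under 0.05, the rule used for the marker counts. Of 8 smooth muscle and pericyte markers, 5 fell, with log2 fold changes from -0.33 (Cnn1) to -1.19 (Rgs5), and none rose. The mean over these markers was between 12.53 and 12.56 on vehicle arrays and between 12.13 and 12.19 on 4OHT arrays. 3 of 10 endothelial markers fell and 2 rose, with means of 7.13 to 7.23 on vehicle arrays and 7.02 to 7.08 on 4OHT arrays. The falls had log2 fold changes of -0.95 (Cdh5), -0.92 (Emcn) and -0.36 (Pecam1), and the rises 0.42 (Tek) and 0.21 (Kdr). Mesothelial markers showed 2 that fell and 1 that rose of 5, with means of 10.78 to 10.83 and 10.64 to 10.69. Of 9 epithelial markers 1 fell (means of 7.02 to 7.10 and 6.99 to 7.06), and of 11 macrophage and leukocyte markers 1 fell and 1 rose (6.96 to 7.01 and 6.95 to 7.07). The part of these cell types in the changes of the replication genes was not tested. In bulk RNA, fewer cells in S phase and less RNA per cell cannot be told apart.

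25 of the 46 members fell at an adjusted p under 0.05, against 6.62% of all genes tested that fell by the same rule, and 0 rose in the limma fit, against 5.38% of all genes. At an unadjusted p under 0.05 the count that rose was 0 as well, and none of the limma alternatives run called a member higher. The median log2 fold change was -0.36 over the members and -0.0051 over all genes. 44 members had a value below 0, against 51.4% of all genes, and in 38 members all 3 4OHT arrays lay below all 3 vehicle arrays, against 17.8% of all genes. 4 members, Mcm5, E2f8, Mcm6 and Dtl, fell at least 2-fold, against 0.352% of all genes. The members were picked with earlier results of these data known, so these counts are a description.

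**Figure D2:**
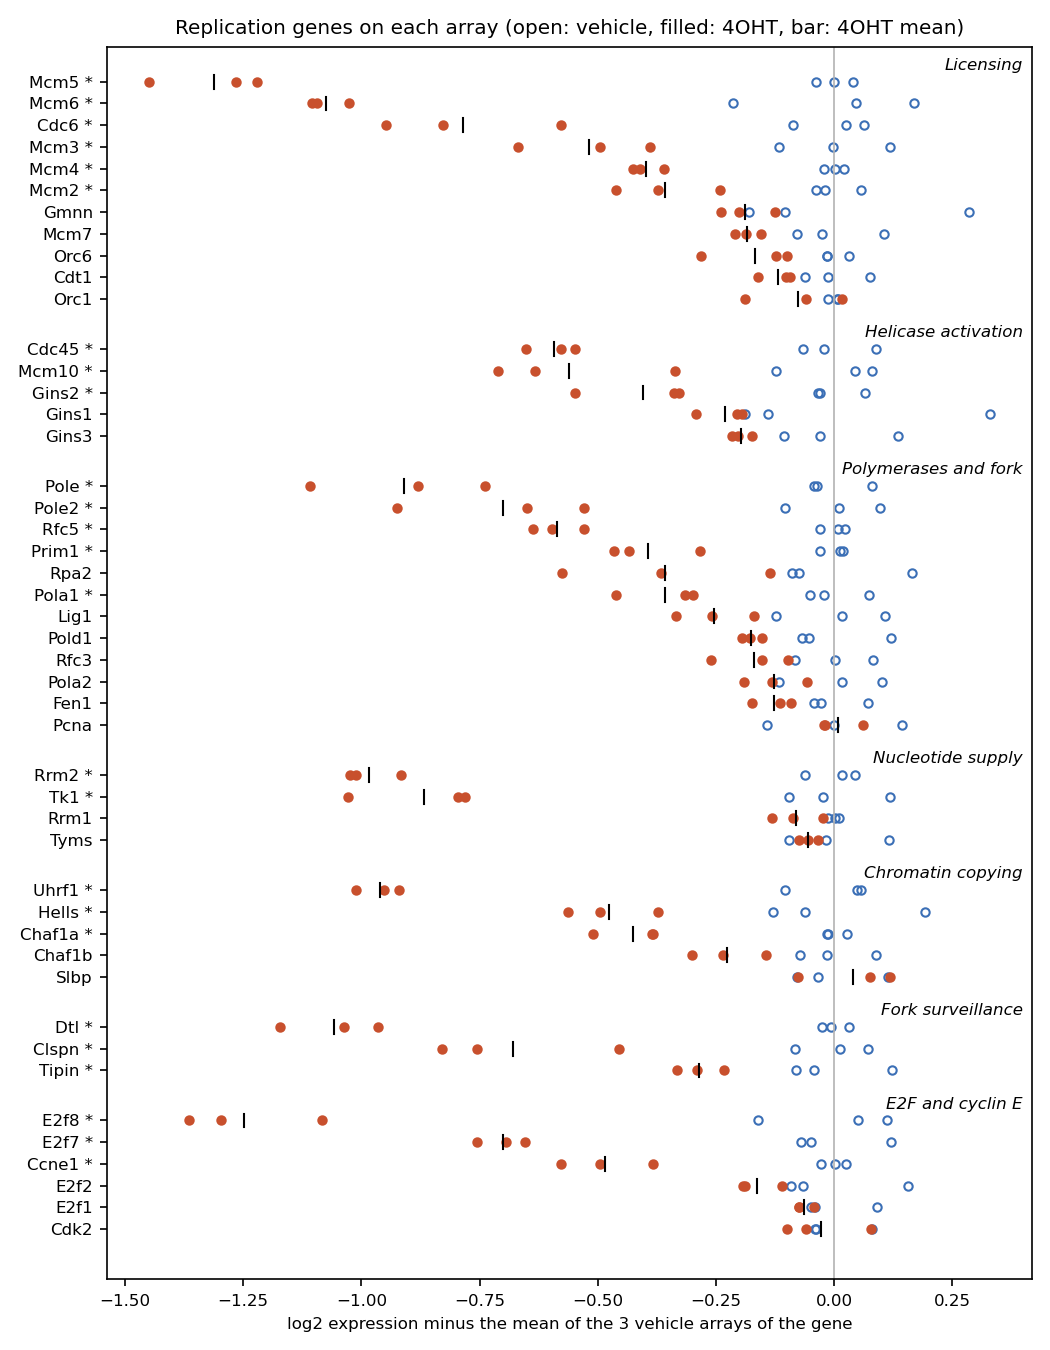
Each row is a gene and each point an array, as log2 expression minus the mean of that gene's 3 vehicle arrays; open points are vehicle wells, filled points 4OHT wells, bars the 4OHT mean, and a star marks the 25 genes that fell. Licensing, fork, nucleotide, chromatin copying and E2F genes include wells that overlap between the groups, such as those of Orc1, Pcna or Tyms, and no helicase activation or fork surveillance gene overlaps. Over all genes tested, the 4OHT wells lay wholly below the vehicle wells in 17.8%.

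The array that read lowest among the 4OHT wells differed from gene to gene. Replicate 2 was the lowest for 23 members, replicate 1 for 15 and replicate 3 for 8. Measured against each gene's vehicle mean, the median over the members was -0.33, -0.44 and -0.29 on 4OHT replicates 1, 2 and 3, and between -0.038 and 0.077 on the vehicle arrays. The median over all genes stayed between -0.015 and 0.011 on the 6 arrays. The SD over the 3 wells of a group had a median over the members of 0.081, both for vehicle and for 4OHT.

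Among the licensing genes, 6 of 11 fell and 5 were not called, with a median log2 fold change of -0.36. Mcm5, a subunit of the helicase ring, read 9.59, 9.51 and 9.55 on the vehicle arrays and 8.33, 8.10 and 8.28 on the 4OHT arrays, in log2 expression. It fell by 1.31 on the log2 scale, or 2.48-fold (SE 0.068, adjusted p = 0.000225), the widest fall among the 46. Mcm6, another ring subunit, read 8.81, 8.55 and 8.94 in vehicle and 7.74, 7.66 and 7.67 in 4OHT wells. It fell 2.11-fold (adjusted p = 0.00122), and the groups were far apart although the vehicle wells spread more (SD 0.20) than the 4OHT wells (SD 0.042). Mcm4 read 9.95, 9.93 and 9.91 in vehicle and 9.57, 9.52 and 9.51 in 4OHT wells, a smaller fall of 1.32-fold with little spread (adjusted p = 0.0022).

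Of the remaining ring subunits, 2 fell and Mcm7 was not called. Mcm3 was 1.43-fold lower (adjusted p = 0.0146) and Mcm2 1.28-fold lower (adjusted p = 0.0181). Mcm7 read 9.38, 9.43 and 9.56 in vehicle and 9.27, 9.25 and 9.30 in 4OHT wells. Its groups did not overlap, but Mcm7 did not pass (log2 fold change -0.18, 95% limits -0.32 and -0.045, adjusted p = 0.0963). The 6 subunits form a ring with 1 copy of each, and their changes ran from -0.18 to -1.31. Mcm3 missed the threshold when vehicle replicate 2 (adjusted p = 0.0543) or 4OHT replicate 2 (0.0538) was dropped. Mcm2 missed it when the dropped array was 4OHT replicate 1 (0.0535), 4OHT replicate 2 (0.0713), vehicle replicate 2 (0.0598) or vehicle replicate 3 (0.0569). With either replicate 2 dropped, 3 ring subunits were called, against 5 with all arrays.

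The loading factors moved unequally. Cdc6, the ATPase that recruits MCM to origins, read 7.15, 7.27 and 7.31 in vehicle and 6.29, 6.41 and 6.67 in 4OHT wells, a fall of 1.72-fold (SE 0.099 on the log2 scale, adjusted p = 0.00439). Cdt1, which carries the ring to the origin, read 8.37, 8.42 and 8.51 in vehicle and 8.27, 8.34 and 8.33 in 4OHT wells and was not called (log2 fold change -0.12, 95% interval -0.24 to 0.0060, adjusted p = 0.209). Gmnn, the Cdt1 inhibitor, read 6.93, 6.85 and 7.32 in vehicle and 6.91, 6.79 and 6.83 in 4OHT wells, where vehicle replicate 3 stood above the other 5 wells. Gmnn was not called (log2 fold change -0.19, 95% limits -0.48 and 0.10, adjusted p = 0.384).

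Neither origin recognition gene among the members was called. Orc1, which binds DNA and ATP in the complex, read 6.82, 6.79 and 6.81 in vehicle and 6.75, 6.62 and 6.82 in 4OHT wells, with overlapping groups (log2 fold change -0.077, 95% interval -0.22 to 0.066, adjusted p = 0.479). Orc6 read 9.42, 9.37 and 9.37 in vehicle and 9.10, 9.26 and 9.29 in 4OHT wells (log2 fold change -0.17, 95% interval -0.31 to -0.026, adjusted p = 0.130). The Orc1 interval includes 0 and leaves room for a small fall. The Orc6 interval lies below 0, and all its 4OHT wells lay below its vehicle wells, as in 17.8% of all genes. Even so, Orc6 did not pass after adjustment.

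Of the 5 genes that turn the loaded ring into a working helicase, 3 fell. Cdc45, the partner that completes the helicase, read 7.74, 7.79 and 7.90 in vehicle and 7.23, 7.16 and 7.26 in 4OHT wells, a fall of 1.51-fold (SE 0.057 on the log2 scale, adjusted p = 0.00155). Gins2 read 9.64, 9.63 and 9.74 in vehicle and 9.34, 9.12 and 9.33 in 4OHT wells (1.32-fold lower, adjusted p = 0.0153). Mcm10, which helps the helicase start to unwind, read 7.75, 7.58 and 7.78 in vehicle and 7.37, 6.99 and 7.07 in 4OHT wells (1.48-fold lower, adjusted p = 0.0203). The wells of the 2 groups did not overlap in any of the 5 genes. Over all genes tested, the 4OHT wells lay wholly below the vehicle wells in 17.8%. In Gins1, a dim probe set, the gap was narrow, from 5.590 (lowest vehicle well) to 5.585 (highest 4OHT well). Gins1 (log2 fold change -0.23, adjusted p = 0.339) and Gins3 (-0.20, adjusted p = 0.118) did not pass. Gins2 missed the threshold when vehicle replicate 2 (adjusted p = 0.0502) or 3 (0.0504) was dropped. Mcm10 missed it when the dropped array was 4OHT replicate 2 (0.0679), 4OHT replicate 3 (0.0607), vehicle replicate 1 (0.0674) or vehicle replicate 3 (0.0651). Without vehicle replicate 3, 1 gene of this role was called.

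Of the 12 polymerase and fork genes, 5 fell, and the median log2 fold change was -0.31. Pole, the catalytic subunit of the leading-strand polymerase epsilon, read 7.94, 7.94 and 8.06 in vehicle and 7.10, 6.87 and 7.24 in 4OHT wells, a fall of 1.88-fold (SE 0.097 on the log2 scale, adjusted p = 0.00219). Pole2, its partner subunit, was 1.63-fold lower (adjusted p = 0.00937). A second, dimmer Pole probe set had a log2 fold change of -0.11. Rfc5, a subunit of the loader that sets the PCNA clamp on DNA, read 9.25, 9.20 and 9.24 in vehicle and 8.70, 8.63 and 8.59 in 4OHT wells, and fell by 0.59 on the log2 scale with the smallest SE of the called fork genes (0.047, adjusted p = 0.000822). Prim1, the primase subunit that lays down RNA primers, read 7.45, 7.50 and 7.50 in vehicle and 7.05, 7.02 and 7.20 in 4OHT wells (1.31-fold lower, adjusted p = 0.00843). Pola1, the catalytic subunit of polymerase alpha, was 1.28-fold lower (adjusted p = 0.0146), a call that went when vehicle replicate 2 was dropped (adjusted p = 0.0559).

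Pold1, Lig1 and Fen1, which work mainly on the lagging strand, were not called. Pold1, the catalytic subunit of polymerase delta, had a value of -0.18 on the log2 scale (95% limits -0.32 and -0.029, adjusted p = 0.126). Lig1, the ligase that seals Okazaki fragments, had -0.25 (adjusted p = 0.0757), and Fen1, the nuclease that trims them, -0.13 (adjusted p = 0.173). A second, dimmer Fen1 probe set had a value of 0.080. The other uncalled fork genes were Rpa2, a subunit of the single-strand binding protein (-0.36, SE 0.12), Rfc3 (-0.17) and Pola2 (-0.13). In Pold1, Lig1, Fen1, Rpa2 and Rfc3 the 4OHT wells all lay below the vehicle wells, and in Pola2 the groups overlapped. Pcna, the sliding clamp, read 11.68, 11.54 and 11.82 in vehicle and 11.74, 11.66 and 11.66 in 4OHT wells. Those wells overlapped (log2 fold change 0.0069, 95% limits -0.18 and 0.19, adjusted p = 0.969).

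Of the 4 nucleotide supply genes, 2 fell and 2 were not called. Rrm2, the small subunit of ribonucleotide reductase that is made in S phase, read 8.59, 8.49 and 8.56 in vehicle and 7.63, 7.54 and 7.52 in 4OHT wells, a fall of 1.98-fold (SE 0.053 on the log2 scale, adjusted p = 0.000236). Rrm1, the large subunit, read 11.90, 11.91 and 11.92 in vehicle and 11.89, 11.82 and 11.78 in 4OHT wells, with no overlap and no call (log2 fold change -0.081, 95% limits -0.19 and 0.028, adjusted p = 0.321). Tk1, the thymidine kinase of dividing cells, read 8.62, 8.55 and 8.76 in vehicle and 7.86, 7.61 and 7.85 in 4OHT wells. It fell 1.83-fold (adjusted p = 0.00178). Tyms, the thymidylate synthase of the route that makes thymidylate afresh, read 9.52, 9.60 and 9.73 in vehicle and 9.54, 9.56 and 9.58 in 4OHT wells, where the groups overlapped (log2 fold change -0.055, 95% interval -0.20 to 0.093, adjusted p = 0.635). A further probe set that carries the names of both Tyms and its pseudogene was not used, and whether the pseudogene adds signal to the Tyms probe set was not tested. With the mean of the probe sets of each gene, the median of the 4 genes moved from -0.47 to -0.31, since a second Rrm2 probe set, at a mean level of 3.87, had a log2 fold change of -0.10.

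Of 5 genes that copy chromatin along with DNA, 3 fell. Uhrf1, which brings the maintenance methyltransferase to newly copied DNA, read 8.37, 8.22 and 8.38 in vehicle and 7.40, 7.31 and 7.37 in 4OHT wells, a fall of 1.95-fold (SE 0.059 on the log2 scale, adjusted p = 0.000381). Chaf1a, the large subunit of the chromatin assembly factor CAF-1, read 7.42, 7.41 and 7.46 in vehicle and 7.05, 6.92 and 7.05 in 4OHT wells (1.34-fold lower, adjusted p = 0.00365). Hells, a chromatin remodeller, read 7.51, 7.57 and 7.83 in vehicle and 7.14, 7.07 and 7.26 in 4OHT wells (1.39-fold lower, adjusted p = 0.0228). The groups of all 3 genes lay apart, yet Hells missed the threshold when the dropped array was 4OHT replicate 1 (adjusted p = 0.0775), 4OHT replicate 2 (0.0847) or vehicle replicate 2 (0.0598). Chaf1b, the CAF-1 partner, narrowly missed the threshold (log2 fold change -0.23, adjusted p = 0.0678). Slbp, the histone mRNA binding protein, was not called (log2 fold change 0.039, 95% interval -0.14 to 0.22, adjusted p = 0.797).

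All 3 fork surveillance genes fell. Dtl, the substrate receptor of a ubiquitin ligase that destroys Cdt1 during S phase, read 8.08, 8.13 and 8.10 in vehicle and 7.07, 6.93 and 7.14 in 4OHT wells, a fall of 2.08-fold (SE 0.062 on the log2 scale, adjusted p = 0.000339). Clspn, the adaptor that activates the checkpoint kinase CHK1, read 7.09, 7.03 and 6.93 in vehicle and 6.56, 6.18 and 6.26 in 4OHT wells (1.60-fold lower, adjusted p = 0.00855). Tipin, the partner of Timeless at the fork, read 8.91, 9.12 and 8.95 in vehicle and 8.76, 8.70 and 8.66 in 4OHT wells (1.22-fold lower, adjusted p = 0.0364). Tipin was the called member nearest to the threshold. Its adjusted p rose to 0.0516, 0.0830 and 0.0695 without vehicle replicates 1, 2 and 3 and to 0.0753, 0.113 and 0.0933 without 4OHT replicates 1, 2 and 3, and to 0.0586 with the arrays centred on their medians.

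Among the 46, the E2F repressors E2f7 and E2f8 fell and the activators E2f1 and E2f2 were not called. E2f8, a late repressor, read 7.86, 8.07 and 8.13 in vehicle and 6.66, 6.72 and 6.94 in 4OHT wells, a fall of 2.38-fold (SE 0.099 on the log2 scale, adjusted p = 0.000805). E2f7, its close relative, read 7.65, 7.68 and 7.84 in vehicle and 7.07, 7.03 and 6.97 in 4OHT wells (1.63-fold lower, adjusted p = 0.00128). Wells of the groups were far apart for both repressors. E2f1, an activator, read 10.55, 10.54 and 10.68 in vehicle and 10.52, 10.52 and 10.55 in 4OHT wells, overlapping the vehicle range (log2 fold change -0.064, 95% interval -0.19 to 0.061, adjusted p = 0.504). E2f2, the other activator among the 46, read 6.94, 7.16 and 6.91 in vehicle and 6.81, 6.81 and 6.89 in 4OHT wells. Its groups did not overlap, but E2f2 did not pass (log2 fold change -0.16, 95% interval -0.34 to 0.015, adjusted p = 0.223). E2f2 read below 7.46, the median level over all genes, in every well, as E2f7 and E2f8 did in 4OHT wells. Because changes of dim probe sets are compressed, the missing call does not show that E2f2 was steady.

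The cyclin E kinase also split. Ccne1, cyclin E1, read 9.14, 9.16 and 9.11 in vehicle and 8.56, 8.64 and 8.75 in 4OHT wells, a log2 fall by 0.49 with an SE of 0.060 (adjusted p = 0.00393). Cdk2, the kinase that cyclin E activates, read 9.52, 9.52 and 9.64 in vehicle and 9.46, 9.50 and 9.64 in 4OHT wells, and was not called (log2 fold change -0.027, 95% limits -0.18 and 0.13, adjusted p = 0.837). The Cdk2 wells overlapped between the groups, and the Ccne1 wells did not.

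Partners of 1 complex or route were then compared within each array. 8 pairs were chosen after their values were seen, as a gene with a large fall beside a partner with a small one, so their direction is given by the choice. The log2 ratio of Mcm5 to Mcm7, set to a mean of 0 in vehicle wells, was between -0.10 and 0.12 in vehicle wells and -1.03, -1.24 and -1.11 in 4OHT wells. The ratio of Rrm2 to Rrm1 was the tightest, at -0.89, -0.92 and -0.89 in 4OHT wells against -0.063 to 0.057 in vehicle wells. The ratio of E2f8 to E2f1 moved by -1.18 (SE 0.098), Mcm6 to Mcm7 by -0.89 (SE 0.10), Tk1 to Tyms by -0.81 (SE 0.092), Pole to Pold1 by -0.73 (SE 0.098), Cdc6 to Cdt1 by -0.67 (SE 0.098) and Ccne1 to Cdk2 by -0.46 (SE 0.055). The groups lay apart in each of the 8 pairs. When the group labels of the wells were exchanged in every possible way, this permutation test returned 0.1 as the p-value of each pair. Benjamini-Hochberg adjustment over the 8 pairs left it at 0.1. With 3 wells per group the test can return no lower value, so it cannot decide whether a ratio moved. Because of how the pairs were picked, these ratios are a description.

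**Figure D3:**
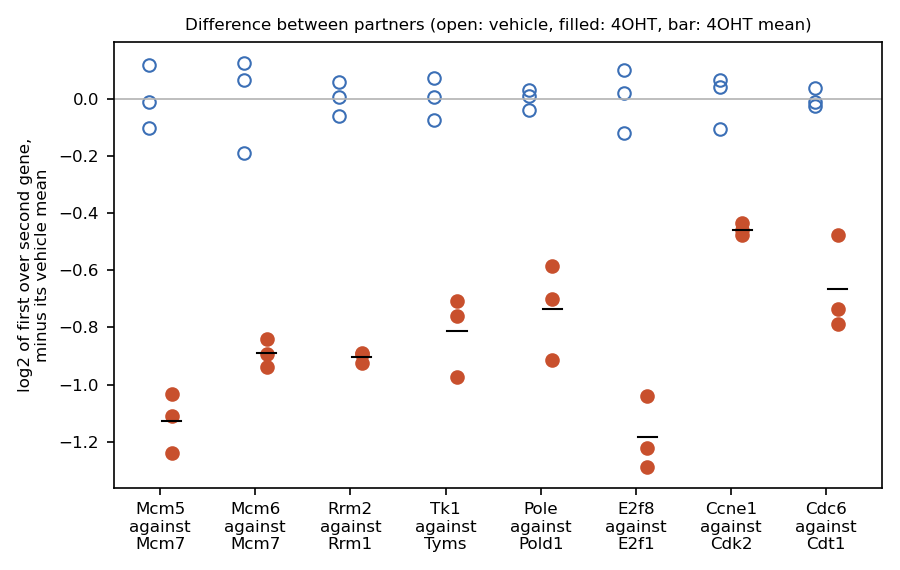
For 8 pairs of genes, points give the log2 ratio of the first to the second gene on each array minus the mean of the vehicle arrays; open points are vehicle wells, filled points 4OHT wells and bars the 4OHT mean. The 4OHT wells lie below the vehicle wells in every pair, from a mean of -0.46 for Ccne1 against Cdk2 to -1.18 for E2f8 against E2f1.

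Replication genes outside the 46 were sorted into 6 lists of the same processes. These lists were written with earlier results of these data known, so their counts are a description. Of 97 measured, 25 fell, 4 rose and 68 were not called, with a median log2 fold change of -0.10. Over all genes tested, 6.62% fell and 5.38% rose by the same rule, so a rise was no more frequent in these lists (4 of 97) than among all genes. Of these 29 calls, 10 held whichever array was dropped. The count that fell was 12 when vehicle replicate 1, vehicle replicate 2 or 4OHT replicate 2 was dropped. It was 13 for 4OHT replicate 1, 15 for vehicle replicate 3 and 24 for 4OHT replicate 3.

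In licensing and origin firing, 5 of 16 fell and none rose. Gins4, the remaining GINS subunit gene, read 11.52, 11.50 and 11.49 in vehicle and 10.96, 10.92 and 11.04 in 4OHT wells (1.45-fold lower, adjusted p = 0.00121). Mcm8, a relative of the ring subunits, read 7.85, 7.95 and 7.94 in vehicle and 7.34, 7.25 and 7.37 in 4OHT wells (1.51-fold lower, adjusted p = 0.00126). Wdhd1, which ties polymerase alpha to the helicase, was 1.49-fold lower (adjusted p = 0.0017), and Ticrr, an origin firing factor, 1.52-fold (0.00293). The wells of Gins4 and Mcm8 lay far apart between the groups, and these 4 calls held whichever array was dropped. Topbp1 fell by 0.24 on the log2 scale (adjusted p = 0.0248) and held in 1 of the 6 fits with an array dropped, the one without 4OHT replicate 3. The kinase genes Cdc7 and Dbf4 and the subunits Orc2, Orc3, Orc4 and Orc5 were not called.

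Of 18 polymerase and fork genes, 3 fell and 2 rose. Prim2, the large primase subunit, fell by 0.27 (adjusted p = 0.0117) and Pold2, a polymerase delta subunit, by 0.32 on the log2 scale (0.0148). Prim2 held whichever array was dropped, and Pold2 held only without vehicle replicate 3 or 4OHT replicate 3 (0.0541 to 0.0642 otherwise). Timeless, the partner of Tipin, fell by 0.27 (0.0412) and held in none of the 6 fits with an array dropped (0.0611 to 0.114). Polk, a translesion polymerase gene, was higher by 0.25 (0.0175), and lost its call when vehicle replicate 1 (0.0642), vehicle replicate 2 (0.0712) or 4OHT replicate 2 (0.0724) was dropped. Rnaseh2b, a ribonuclease subunit gene, was higher by 0.33 (0.0274) and held only without vehicle replicate 3 (0.0481, and 0.0525 to 0.0960 otherwise).

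In nucleotide supply, 5 of 25 fell and 1 rose. Dck, a salvage kinase, fell by 0.38 (adjusted p = 0.0125), Dut, which clears dUTP, by 0.40 (0.0140) and Dtymk, which phosphorylates thymidylate, by 0.22 on the log2 scale (0.0160). Dck lost its call without 4OHT replicate 2 (0.0536), Dut without vehicle replicate 2 (0.0574) or 4OHT replicate 1 (0.0556), and Dtymk held only without vehicle replicate 3 or 4OHT replicate 3 (0.0543 to 0.0671 otherwise). Samhd1, which degrades nucleotides, and Dctpp1 also fell (0.0247 and 0.0387), and Samhd1 held only without 4OHT replicate 1 and Dctpp1 only without 4OHT replicate 3. Ctps2, a CTP synthase gene, was higher by 0.17 (0.0484) and held in none of the 6 fits with an array dropped (0.0849 to 0.147). The purine synthesis genes Gart, Paics, Ppat, Adsl and Atic and the pyrimidine synthesis genes Cad, Umps and Dhodh were not called.

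In chromatin copying, 3 of 11 fell and none rose. Asf1b, a histone chaperone of dividing cells, read 9.22, 9.22 and 9.27 in vehicle and 8.11, 8.17 and 8.22 in 4OHT wells (2.09-fold lower, adjusted p = 0.000188). These wells lay far apart, and the call held whichever array was dropped. Tonsl fell by 0.37 (0.0158) and Dnmt1, the maintenance DNA methyltransferase that Uhrf1 recruits, by 0.21 on the log2 scale (0.0315). Tonsl lost its call without vehicle replicate 1 (0.0564) or 3 (0.0526), and Dnmt1 without each of the 6 arrays (0.0559 to 0.115). Asf1a, the other copy of the chaperone, was not called (log2 fold change -0.0094, adjusted p = 0.931).

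In the S-phase checkpoint list, 5 of 15 fell and 1 rose. Skp2, which marks CDK inhibitors for destruction, was 1.33-fold lower (adjusted p = 0.00392) and Fbxo5, an inhibitor of the anaphase-promoting complex, 1.60-fold lower (0.00587), and both calls held whichever array was dropped. Wee1, an inhibitory kinase of the CDKs, was 1.26-fold lower (0.0311), Chek1, the kinase that Clspn activates, 1.26-fold lower (0.0365), and Cdc25a 1.19-fold lower (0.0352). Wee1 and Chek1 held only without 4OHT replicate 3 (0.0568 to 0.109 and 0.0674 to 0.121 otherwise), and Cdc25a in none of the 6 fits (0.0569 to 0.114). Cul4b, a ubiquitin ligase scaffold gene, was higher by 0.25 (0.0389) and held only without 4OHT replicate 3 (0.0425, and 0.0636 to 0.115 otherwise).

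Among further E2F, cyclin and MuvB genes, 4 of 12 fell and none rose. Ccna2, cyclin A2, read 10.87, 10.90 and 11.01 in vehicle and 9.36, 9.30 and 9.39 in 4OHT wells, a fall of 2.99-fold (adjusted p = 0.000114). Mybl2, the B-Myb factor that joins MuvB, was 1.64-fold lower (0.0077), and both calls held whichever array was dropped. Lin9, a MuvB subunit, was 1.35-fold lower (0.0355) and E2f5 1.21-fold lower (0.0278), and each held only without 4OHT replicate 3 (0.0598 to 0.116 and 0.0678 to 0.100 otherwise). E2f3 (log2 fold change -0.22, adjusted p = 0.0986) and E2f4 (-0.11, 0.232) were not called.

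**Figure D4:**
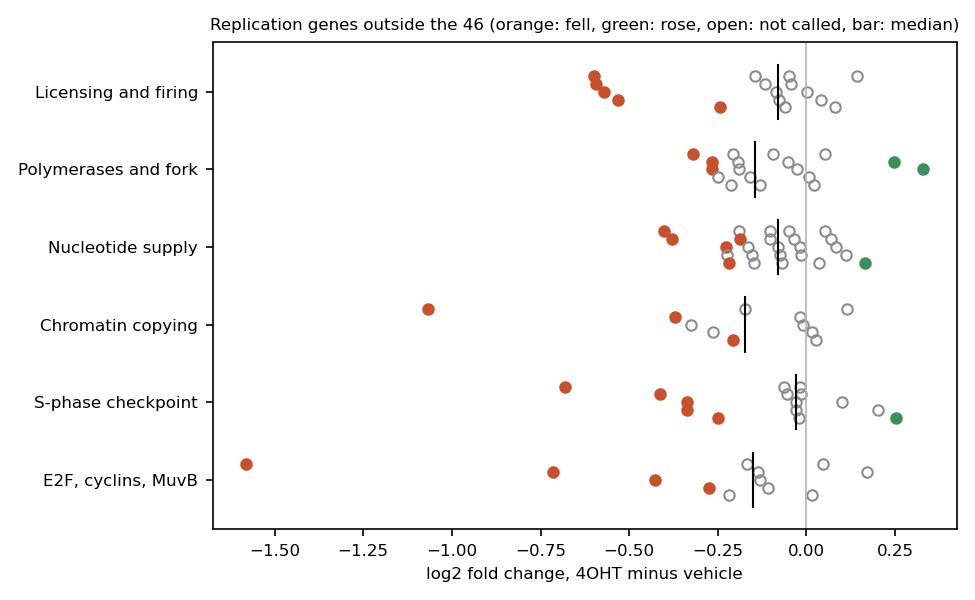
Each point is a replication gene outside the 46, placed by its log2 fold change (4OHT minus vehicle) in 1 of 6 lists; orange points fell, green points rose, open points were not called and bars are list medians. The list medians lie between -0.17 and -0.030, with Ccna2 (-1.58) and Asf1b (-1.07) furthest to the left.

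A list of mitosis genes was set beside the members. All 29 measured mitosis genes fell, against 25 of 46 members, and 19 of them fell at least 2-fold, against 4 members. The mitosis median was -1.12 on the log2 scale (2.17-fold lower), against -0.36 (1.28-fold lower) over the members. The mitosis values ran from -1.51 for Plk1 to -0.45, so the mildest was still below the median of the members. The list was written with earlier results of these data known, and no test of the difference between the lists was made.

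**Figure D5:**
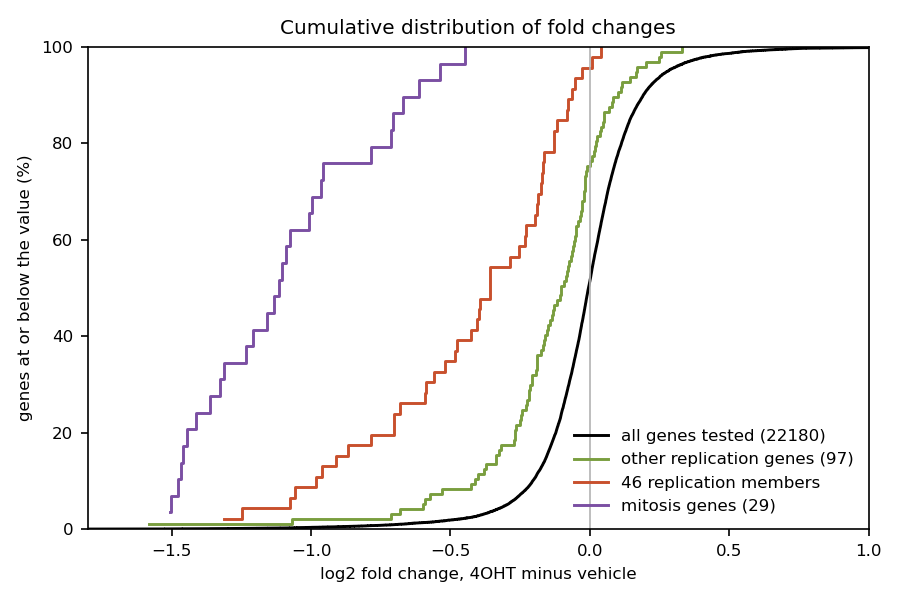
Lines give the percent of genes at or below each log2 fold change (4OHT minus vehicle) for all 22180 genes tested, 97 other replication genes, the 46 members and 29 mitosis genes. The members cross the 0 line with 44 of 46 genes below it and lie between the mitosis genes and all genes.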

How the data were processed

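Total RNA, 100 ng per reaction, was labelled with biotin by oligo(T)-primed amplification and read on single-colour Affymetrix arrays, 1 per well, per the labels' protocols. The deposited table holds log2 expression of 41345 probe sets; oligo, RMA and limma are named, without versions, in the submitters' processing notes. RMA equalizes the distributions of the arrays, so a shift of all genes is removed. Changes of dim probe sets are compressed in such array values. Depth does not apply to arrays, and their number, 3 per group, limits the precision. No source used here names the genome build of the probe annotation.

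Only the 23521 probe sets with 1 gene symbol were used (1814 had several, 16010 none), the one with the highest mean over 6 arrays per gene, which left 22180 genes. The fit used limma 3.58.1 under R 4.3.3 (lmFit and eBayes, two-sided, 6.70 degrees of freedom), with Benjamini-Hochberg adjustment over all genes and a threshold of 0.05. Fold changes are 4OHT minus vehicle. "Fell" and "rose" mean past that threshold.

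All members may be named. Values on every array are given for the 3 of smallest p in each role, all E2F and cyclin E genes and uncalled licensing and nucleotide genes; Cdc6 and Pcna were added after their values were seen. From each other list the 3 genes of smallest p and those higher are named, with further genes added likewise. Members and lists were chosen with earlier results of these data known. Promoter sequences are from RefSeq (GRCm38.p6). Protein sequences were not used here. The fit was also run on simulated data with independent noise for each gene, which cannot test effects shared by wells or arrays. Alternatives were a replicate block, other scaling, filters, probe set rules, estimates of the spread, array weights, thresholds and leaving out each array.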

Additional observations from a re-analysis of the deposited data

How the results depend on the processing

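The count of members that fell was between 19 and 25 of 46 under all alternatives but 3, which gave 29 with limma's trended, robust variance, 18 at an adjusted p under 0.01 and 14 when at least 1.5-fold was also asked. Among genes above the median level 33 members were tested and 24 fell. Leaving out 1 array in turn gave 19 to 23, and 18 members stayed called whichever of the 6 arrays was left out. No alternative called a member higher. Whether the replicate numbers of the titles pair the wells cannot be told from these values. The deviations of same-numbered wells correlated at 0.062, -0.024 and 0.043, and not every well correlated best with its own number. With the number as a replicate block 24 members fell, of 1568 genes called (920 lower, 648 higher), and 15 other replication genes fell and 1 rose; Pola1 (adjusted p = 0.0603) and Tipin (0.0800) lost their calls and Rpa2 gained one (0.0475).

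Of all genes, 2662 were called (1469 lower, 1193 higher), 4123 (2295, 1828) with the trended, robust variance, 1010 (615, 395) at an adjusted p under 0.01, 463 (304, 159) with at least 1.5-fold, and 1220 to 2326 with 1 array left out (734 to 1340 lower, 486 to 986 higher). At least 1.5-fold left 3 licensing, 1 helicase activation, 3 polymerase and fork and 1 chromatin copying gene lower. An adjusted p under 0.01 left 1 helicase activation gene, and leaving out 1 array left 1 to 3. Among genes above the median level 1 of 3 E2F and cyclin E genes fell (median -0.064), and the chromatin copying median was -0.23. With the mean of probe sets the nucleotide median was -0.31. The mitosis median was -1.19 to -1.08 with 1 array left out. Other replication genes lower and higher were 14 and 0 in a fit over all probe sets, 9 and 0 at an adjusted p under 0.01, 6 and 0 with at least 1.5-fold, 33 and 7 with the trended, robust variance, and 12 to 24 and 0 to 3 with 1 array left out.

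The sign of uncalled members near 0 turned with 1 array left out: Cdk2 was 0.012 without vehicle replicate 3 and 0.0096 without 4OHT replicate 1 (lowest -0.080), Pcna -0.064 without vehicle replicate 2 and -0.020 without 4OHT replicate 1 (highest 0.078), Slbp -0.00064 without vehicle replicate 1 and -0.0011 without 4OHT replicate 2 (highest 0.097), and Tyms 0.0023 without vehicle replicate 3 (lowest -0.10). Mcm7, Lig1, Chaf1b and Rpa2 passed with the trended, robust variance (adjusted p = 0.0359, 0.0393, 0.0259 and 0.0400) and, with Gins3, Orc6 and Pold1, among genes above the median level. The causes were not tested.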
